A study of Mus musculus with 12 samples.

Results

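The genes described here are Trp53, which encodes the tumour suppressor p53, and 9 genes that p53 activates: Mdm2, Ccng1, Trp53inp1, Cdkn1a, Bax, Bbc3, Pmaip1, Perp and Fas. They were taken by name from the count tables of the 4 RNA libraries, as targets in cell cycle arrest and cell death, a pathway that the repressor Gfi1 is known to restrain. All 10 were found among 41214 genes, and all 10 were among the 13822 genes with enough counts to be tested. The libraries came from leukaemic cells of 4 mice, 2 of the Gfi1 genotype KD/KD (homozygous, called KD here) and 2 of the genotype KI/wt (heterozygous, called KI here). Every mouse had the C57/BL6 NUP98-HOXD13 background, in which a transgene joins a nuclear pore gene to a homeobox gene and causes myelodysplasia and acute myeloid leukaemia. In mouse lines known by these names the altered allele holds human GFI1 coding sequence, so counts on mouse Gfi1 are not the whole GFI1 dose. The labels give neither the organ, a cell sort nor the age of the mice, and do not say whether the mice of a genotype shared a litter.

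p53 is a transcription factor that is kept scarce in unstressed cells and becomes stable after DNA damage or oncogene activity. Its targets fall into a feedback arm that limits p53 itself (Mdm2, Ccng1), an arm that halts the cell cycle (Cdkn1a), and a death arm that acts at mitochondria (Bax, Bbc3, Pmaip1) or at the cell surface (Fas, Perp). In blood stem and progenitor cells the pathway is known to limit the survival of damaged cells. p53 is regulated mostly at the protein level, which was not measured here.

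Expression is given in CPM, the counts of each library scaled to a common total, with TMM factors that correct for unequal library composition. Gene counts per library were 11934542 and 10263454 in KD replicates 1 and 2, and 4581593 and 10869534 in KI replicates 1 and 2, so that 3 counts correspond to 0.251 to 0.655 CPM before TMM scaling. KI replicate 1 stood apart, with 88.3% of its uniquely aligned reads in no gene, against 63.2% to 68.3% in the other 3 libraries. A set of 1493 olfactory, vomeronasal and taste receptor genes, silent in blood, averaged 2.58 counts per gene there, against 1.04 to 1.31 in the other libraries. Satellite-like loci took 20.2% and 21.9% of the gene counts in KD, and 40.5% and 45.8% in KI. Mouse Gfi1 followed the labels, at 7.22 and 1.12 CPM in KD and 36.2 and 89.0 CPM in KI. How strand was set in counting is not given in the sources used here. mt-Nd6 and mt-Nd5, on opposite mitochondrial strands, had 437 and 2721 counts per kilobase in KD replicate 1, and 422 and 780 in KD replicate 2. In KI they had 586 and 507 in replicate 1, and 389 and 400 in replicate 2. What these values say of the strand setting was not tested. Xist had 9795 counts in KD replicate 2 and 6613 in KI replicate 2, where its antisense gene Tsix had 10 in each, and 6 and 56 counts in KD replicate 1 and KI replicate 1, where it gives no check. Libraries with the same replicate number were thus alike in Xist, high in both replicate 2 libraries, and the labels do not give the sex of the mice. The 8 progenitor and leukaemia markers examined, among them Kit, Mpo and Spi1, were detected in every library, and summed to 2887 and 2965 CPM in KD and 2171 and 2624 CPM in KI. The sum rests mostly on Mpo and Ptprc, and its members differed: Cd34 lay at 68.4 and 119.7 CPM in KD against 32.5 and 6.41 CPM in KI, and Kit at 34.1 and 27.0 CPM in KD against 55.2 and 52.7 CPM in KI.

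Of the 10 genes, Trp53inp1 and Perp were lower in both KD mice than in both KI mice, by a fitted 3.14 and 71.9 times, the Perp value resting on 8 KD counts. The 8 others, Trp53 included, had fitted log2 fold changes (KD minus KI) between -0.36 and 0.44, of which those of Mdm2 and Ccng1 alone had intervals that leave out a 2-fold difference either way. In edgeR's quasi-likelihood test, with p-values adjusted over all genes tested, 0 of the 10 genes passed in either direction, and neither did any other gene (0.0% of 13822). At an unadjusted p under 0.05 there were 2 of the 10 genes lower (Trp53inp1 and Perp) and 0 higher, where 8.34% of all tested genes were lower and 1.29% higher. Of the genes under that p, 13.4% were higher in KD, against 77.2% with library size only scaling, which leaves unequal composition uncorrected. DESeq2 called those 2 genes lower and 0 higher, where it called 1.05% of 13018 genes lower and 0.0384% higher. KD and KI did not overlap for 4 of the 10 genes: Trp53 was higher in KD, as were 14.5% of all tested genes, and Mdm2, Trp53inp1 and Perp were lower, as were 23.5%. The median fold change of the 10 genes was -0.11, beside -0.06 over all genes tested. Leukaemic cells were measured in bulk, so fewer cells with a transcript cannot be told apart from less of it per cell.

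**Figure D1:**
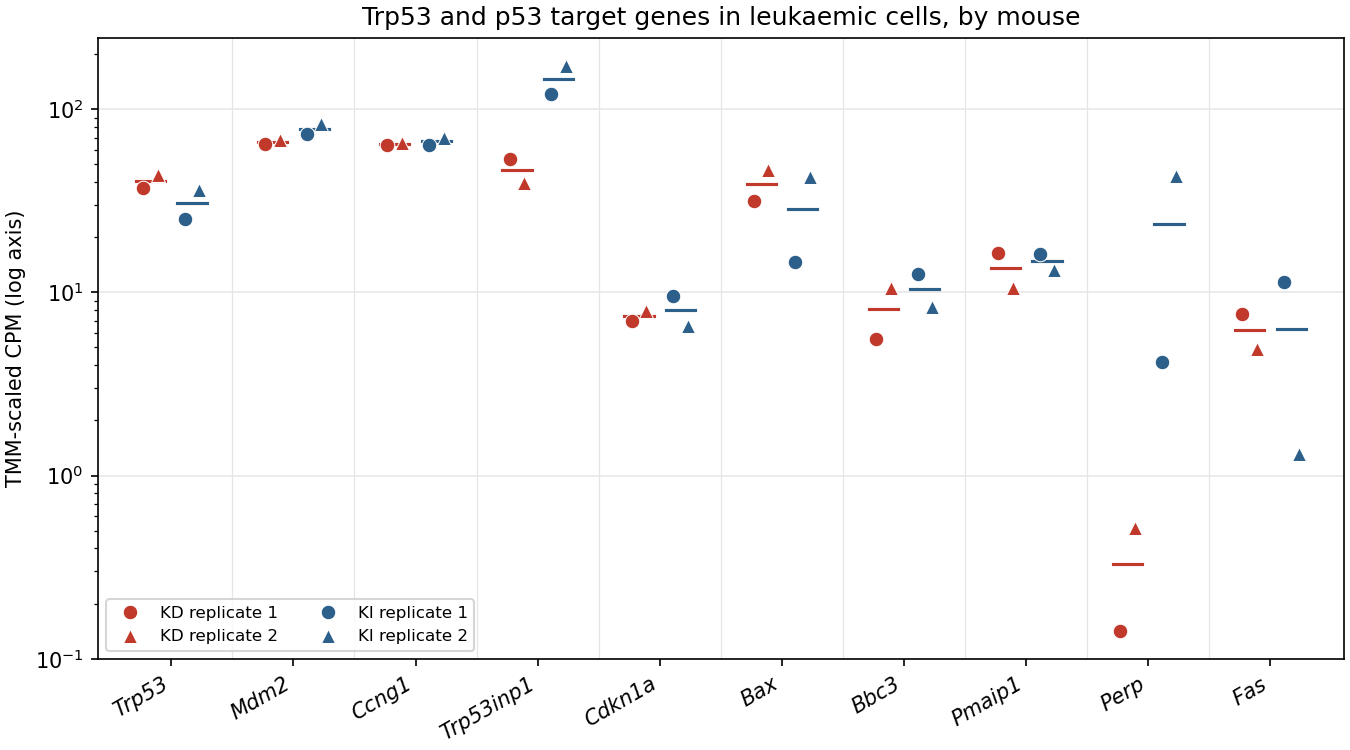
TMM-scaled CPM (log axis) of Trp53 and 9 p53 targets in each of the 4 libraries, KD in red to the left of KI in blue, with circles for replicate 1, triangles for replicate 2 and bars for the mean of a genotype. Trp53inp1 and Perp are lower in both KD mice, while Mdm2 and Ccng1 sit between 63.5 and 82.7 CPM in every mouse.

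Trp53 itself was measured at 37.3 and 43.9 CPM in KD, against 25.05 and 36.1 CPM in KI. Both KD mice lay above both KI mice, but the lower KD value and the higher KI value were nearly the same. The log2 fold change was 0.41 ± 0.33 (SE), with a 95% interval of -0.41 to 1.22 and adjusted p = 0.809 in edgeR's test. The gene lies on the plus strand of GRCm38 chromosome 11 (69580348 to 69591873). It starts head to head with Wrap53, an antisense partner whose RefSeq span ends 98 bases before it. Wrap53, which encodes a protein of telomerase assembly, had 207 and 180 counts in KD and 38 and 152 in KI, and Trp53 had 2.00 to 2.84 times as many counts as Wrap53 in each of the 4 libraries.

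Mdm2, the ubiquitin ligase that p53 induces and that marks p53 for degradation, lay at 64.4 and 68.2 CPM in KD, against 73.1 and 82.7 CPM in KI. The KD mice were both below the KI mice, by little: the means were 66.3 ± 2.73 in KD and 77.9 ± 6.81 in KI (SD, n = 2 each). The log2 fold change was -0.23 ± 0.26 (SE; interval -0.89 to 0.43), with adjusted p = 0.911 in edgeR's test, and turned to 0.20 with library size only. Ccng1, cyclin G1, which brings a phosphatase to Mdm2, was the steadiest of the 10 genes, at 63.5 and 65.1 CPM in KD and 63.8 and 69.6 CPM in KI. Its highest library was 1.10 times its lowest, with a log2 fold change of -0.05 ± 0.26 (SE; interval -0.71 to 0.60) that took either sign, up to 0.37, with the scaling. These 2 intervals are the narrowest of the 10, and neither reaches a 2-fold difference, or 1 on the log2 scale.

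Ccng1 and Cdkn1a are also the members whose promoter windows hold a near-complete p53 binding site, so their sequence is shown. RefSeq promoter windows (GRCm38.p6, 250 bases before to 50 after a transcript start) were at hand for 7 of the 10 genes, 10 windows in all. The p53 pattern searched for was a pair of half-sites of 10 letters side by side. Pairs with further letters between the half-sites were not searched for. A stretch of 20 letters with at most 1 letter off that pattern occurred in 29 of 32851 windows (0.0883%), counted once since the pattern reads the same on both strands. It occurred in 2 of the 7 genes, all 7 having been picked as p53 genes. In Ccng1 it starts 195 bases before the transcript start (minus strand, chr11:40755462-40755481), and in Cdkn1a 51 bases before the upstream of its 2 starts (plus strand, chr17:29090928-29090947). That Cdkn1a stretch lies 2841 bases before the downstream start. The closest stretches in Trp53 (chr11:69580284-69580303), Bbc3 (chr7:16309486-16309505) and Bax (minus strand, chr7:45467090-45467109) were 3 letters off, as close as 6.29% of all windows come, and those in Mdm2 and Fas 5 letters off (76.6%). Letters outside these windows were not searched, so a site elsewhere in a gene would be missed. Whether p53 binds any of these stretches, close or loose, was not tested. Capitals mark the 20-letter stretch in each window and a further half-site in that of Cdkn1a. Sequences run 5′ to 3′ on the strand of the gene, and the 3 further stretches, all in capitals, show how the looser matches differ.
Ccng1 window: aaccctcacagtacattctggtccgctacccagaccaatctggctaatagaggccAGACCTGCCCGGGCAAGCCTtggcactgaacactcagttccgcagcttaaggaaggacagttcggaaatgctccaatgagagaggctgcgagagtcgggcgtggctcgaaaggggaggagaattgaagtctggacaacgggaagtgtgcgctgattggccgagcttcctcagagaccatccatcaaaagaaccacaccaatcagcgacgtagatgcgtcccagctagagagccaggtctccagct
Cdkn1a window at the upstream start: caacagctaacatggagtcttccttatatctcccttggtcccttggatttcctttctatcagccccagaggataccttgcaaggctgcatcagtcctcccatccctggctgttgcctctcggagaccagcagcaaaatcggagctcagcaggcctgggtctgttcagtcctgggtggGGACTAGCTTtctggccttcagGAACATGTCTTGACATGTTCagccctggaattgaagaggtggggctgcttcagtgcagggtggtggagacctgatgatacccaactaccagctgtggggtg
Trp53 stretch: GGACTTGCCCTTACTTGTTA
Bbc3 stretch: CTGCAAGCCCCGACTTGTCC
Bax stretch: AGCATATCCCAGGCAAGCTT

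In the Cdkn1a window a further single half-site stands 73 bases before the start. A single half-site occurred in the windows of 5 of the 7 genes (Trp53, Mdm2, Cdkn1a, Ccng1 and Bax), and in 8.36% of all windows. The letters AATC, the core of the Gfi1 binding site, were searched on both strands and occurred in windows of 6 of the 7 genes and in 73.1% of all windows. The longer form AATCAC occurred in 0 of the 7, and in 10.4% of all windows. Here and for the near-complete site, members were counted by gene (7 genes with 10 windows) and the background by window. A gene with several windows has more room for a match, so counts and shares are not like for like. These matches describe the letters only.

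Cdkn1a encodes p21, the cyclin-dependent kinase inhibitor through which p53 halts the cell cycle. Its level was low, at 6.93 and 7.86 CPM in KD and 9.51 and 6.53 CPM in KI, from 41 to 98 counts a library. The KD values lay between the KI values, and the log2 fold change was -0.11 ± 0.49 (SE; interval -1.32 to 1.10), with adjusted p = 0.994 in edgeR's test. Its direction turned to 0.28 with library size only and to 0.31 in the absence of KI replicate 1. Ccng1 and Cdkn1a thus share the near-complete site but differ in precision, with counting error alone of 3.34% to 6.03% per library for Ccng1 and 10.1% to 15.6% for Cdkn1a.

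Trp53inp1, a stress-induced partner of p53 that also acts in autophagy, lay at 53.8 and 39.5 CPM in KD, against 121 and 172 CPM in KI. The highest KD mouse stood below the lowest KI mouse by more than either pair of mice differed. The means were 46.6 ± 10.1 CPM in KD and 146.5 ± 36.0 CPM in KI (SD, n = 2 each). The log2 fold change was -1.65 ± 0.33 (SE), with an interval of -2.48 to -0.83, lower in 2 of 2 KD mice. It had unadjusted p = 0.00308 and adjusted p = 0.518 in the quasi-likelihood test of edgeR, and adjusted p = 0.0262 in DESeq2 (-1.56). The value stayed between -1.89 and -1.20 under every alternative scaling, filter and test and without each library in turn, and was -1.30 without KI replicate 2, whose level was the highest. The gene lies on GRCm38 chromosome 4 (11156441 to 11174379), and its counts ran from 457 to 1450, so that counting error was at most 4.68% in any library.

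**Figure D2:**
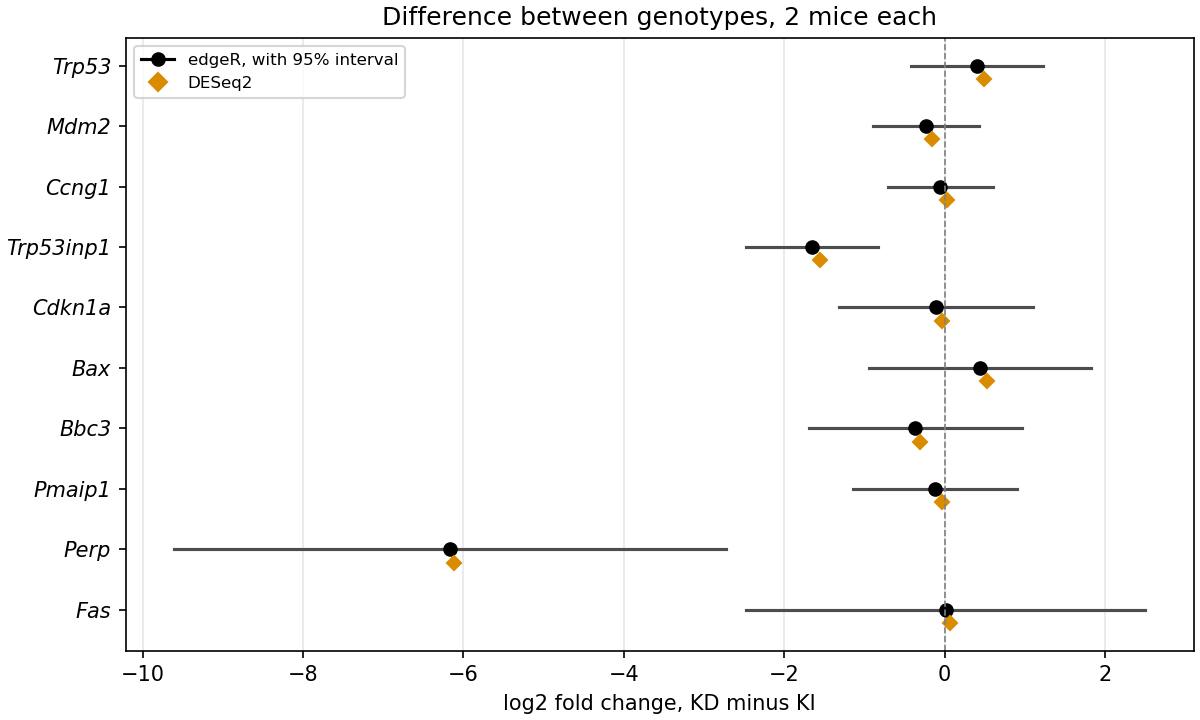
Fitted log2 fold change of each gene, KD minus KI, from edgeR (black points, with 95% intervals as lines) and DESeq2 (orange diamonds), from 2 mice per genotype. The intervals of Trp53inp1 (-2.48 to -0.83) and Perp (-9.60 to -2.73) lie below 0 and the other 8 span it.

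The death genes that act at the mitochondrion overlapped between the genotypes. Bax, which opens the outer mitochondrial membrane, had 31.6 and 46.6 CPM in KD, against 14.6 and 42.6 CPM in KI. KI replicate 1 was low and the other 3 libraries lay within 1.48 times of each other. The log2 fold change of 0.44 ± 0.55 (SE; interval -0.94 to 1.82) had adjusted p = 0.928 in edgeR's test, and rested on that mouse: it was -0.0027 when KI replicate 1 was left out and 1.47 when KI replicate 2 was left out. Bbc3, or Puma, a BH3-only protein that frees Bax, had 5.59 and 10.5 CPM in KD, against 12.5 and 8.30 CPM in KI. Pmaip1, or Noxa, a BH3-only protein that binds Mcl1, had 16.5 and 10.6 CPM in KD, against 16.2 and 13.3 CPM in KI. In both genes the genotypes overlapped, with log2 fold changes of -0.36 ± 0.53 and -0.12 ± 0.41 (SE), and both turned positive without KI replicate 1 (0.0709 for Bbc3 and 0.18 for Pmaip1) and with library size only (0.0189 and 0.30). The intervals, -1.69 to 0.97 for Bbc3 and -1.15 to 0.91 for Pmaip1, include a 2-fold lower level in KD but not a 2-fold higher one.

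The 2 death genes of the cell surface had the widest spread between the KI mice. Fas, the death receptor bound by Fas ligand, had 7.57 and 4.92 CPM in KD, against 11.4 and 1.31 CPM in KI. The KI mice bracketed the KD mice and differed 8.71-fold from each other. KI replicate 2 held 11 counts and KI replicate 1 held 49. The fitted log2 fold change of 0.01 ± 1.00 (SE) was 2.40 when KI replicate 1 was left out and -0.78 when KI replicate 2 was left out. Its interval of -2.48 to 2.50 was the widest among the 8 genes whose interval spans 0.

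Perp encodes a small membrane protein of desmosomes that takes part in p53-induced death. It lay at 0.142 and 0.518 CPM in KD, against 4.17 and 43.2 CPM in KI. Only 2 and 6 counts were found in the KD libraries, against 18 and 364 in the KI libraries, so the KD mice were near the floor while the KI mice differed 10.3-fold from each other. The pooled counts gave a KI to KD ratio of 96.3 after scaling (95% exact binomial interval 48.4 to 225, counting error only). The fitted log2 fold change was -6.17 ± 1.38 (SE; interval -9.60 to -2.73), lower in 2 of 2 KD mice. DESeq2 gave -6.11 with adjusted p = 2.95e-05, and edgeR's test an unadjusted p = 0.00507 and adjusted p = 0.518. The size rested on KI replicate 2: without that mouse the value was -3.60 with adjusted p = 0.0808 in edgeR, and without each other library it ran from -7.26 to -5.48 and passed (adjusted p = 8.9e-05 to 0.00864). In KI replicate 1 the 18 counts of Perp compare with a 95th percentile of 7 counts among the silent receptor genes of that library. The comparison was not matched for transcript length, so it does not set a background level for Perp. Perp lies on GRCm38 chromosome 10 (18845071 to 18857073).

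Markers of red cells and maturing neutrophils were lower in both KD mice than in both KI mice, as Trp53inp1 and Perp were. The tested markers of T cells, B cells and stroma all had negative fitted fold changes (KD minus KI) too. Of these, only 2 T cell and 2 stroma markers were lower without overlap. All 6 erythroid markers examined were lower in both KD mice, summing to 47.0 and 1.99 CPM in KD and 324 and 292 CPM in KI. All 5 markers of maturing neutrophils were lower too, at 2749 and 1023 CPM in KD and 14345 and 15699 CPM in KI. The 4 T cell markers summed to 6.09 and 7.60 CPM in KD and 34.3 and 45.7 CPM in KI, with 2 of 4 genes not overlapping. For comparison, 23.5% of all tested genes were lower in KD without overlap and 14.5% higher. Cd3e lay at 1.34 and 0.518 CPM in KD and 6.26 and 37.3 CPM in KI, and Cd3g at 1.42 and 1.73 CPM in KD and 5.57 and 5.93 CPM in KI. Cd3d and Lck overlapped, with Cd3d at 0.566 and 1.64 CPM in KD and 4.64 and 0.593 CPM in KI, and Lck at 2.76 and 3.71 CPM in KD and 17.9 and 1.90 CPM in KI. The 2 tested B cell markers, Cd79b and Ms4a1, overlapped as well, with Cd79b at 13.1 and 16.8 CPM in KD and 10.4 and 28.1 CPM in KI. The 3 stroma markers summed to 4.03 and 2.85 CPM in KD and 20.6 and 5.10 CPM in KI. The 10.3-fold difference in Perp between the KI mice stood beside erythroid sums of 324 and 292 CPM and neutrophil sums of 14345 and 15699 CPM in the same mice. Among the T cell markers, Cd3e was higher in KI replicate 2 than in KI replicate 1, as Perp was, Cd3g was nearly level, and Cd3d and Lck were lower in KI replicate 2. The part of these cells in the Trp53inp1 and Perp values was not tested.

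**Figure D3:**
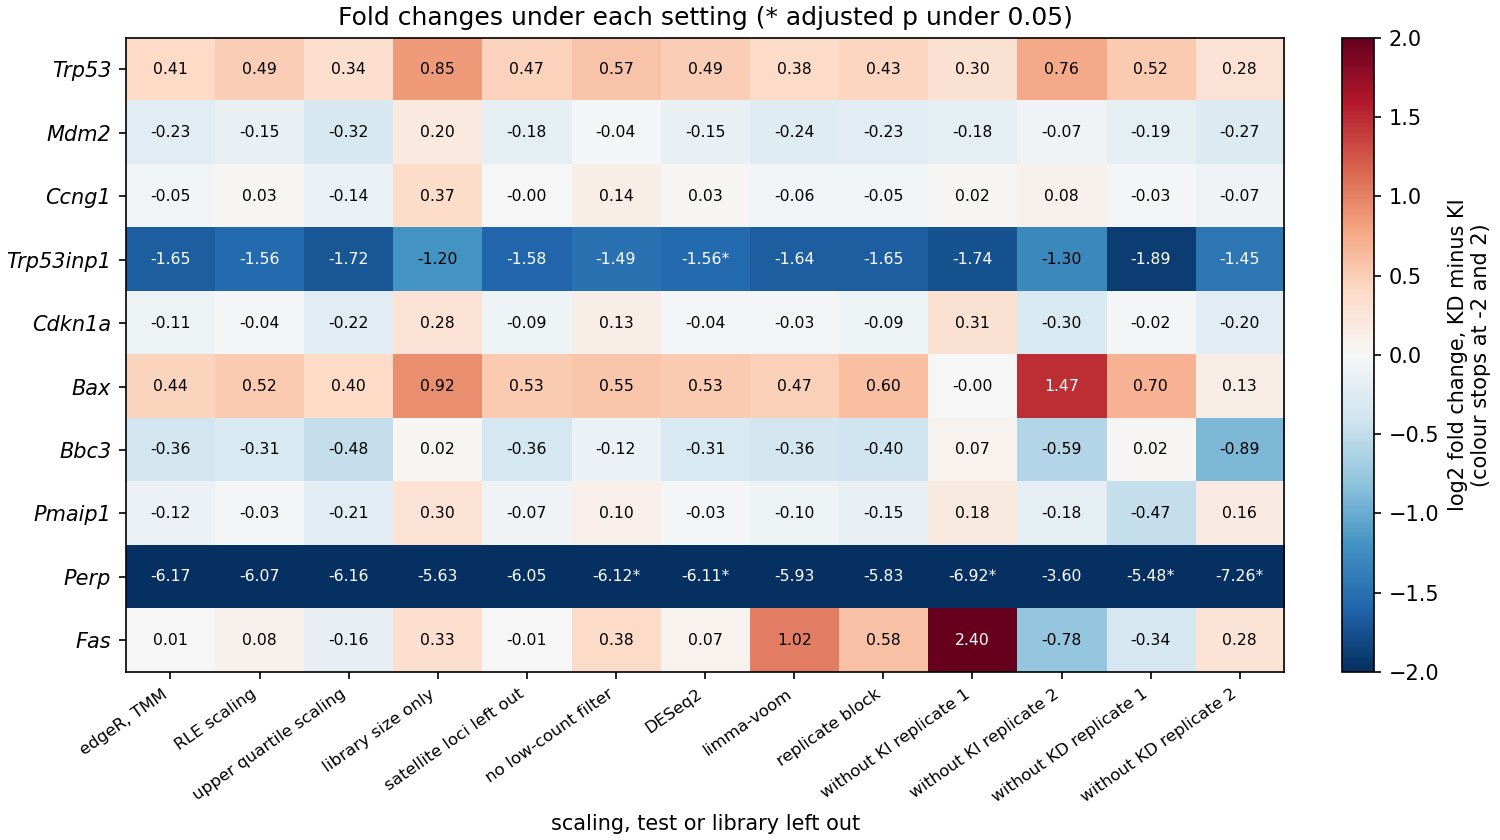
Log2 fold change (KD minus KI, colour scale ending at -2 and 2) of the 10 genes, in rows, under the main analysis and 12 alternatives, in columns, with asterisks for an adjusted p under 0.05. Trp53inp1 (-1.89 to -1.20) and Perp (-7.26 to -3.60) are negative in every column, and Trp53 is positive in every column (0.28 to 0.85).

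Counts of a target per count of Trp53 in the same library need no scaling between libraries, and all 9 ratios share the Trp53 count. Trp53inp1 had 1.44 and 0.900 counts per Trp53 count in KD, against 4.83 and 4.77 in KI. The KI mice were nearly equal by this measure and both lay above both KD mice. Mdm2 had 1.73 and 1.56 counts per Trp53 count in KD, against 2.92 and 2.29 in KI. Ccng1 had 1.70 and 1.48 in KD, against 2.55 and 1.93 in KI. For Perp the ratio was 0.00380 and 0.0118 in KD, against 0.167 and 1.20 in KI. These 4 of 9 targets lay lower in KD without overlap and 0 of 9 higher, where 48.4% of all other tested genes lay lower by the same ratio and 2.06% higher, Trp53 itself being higher in both KD mice. The targets' count is near that background. The other 5 targets overlapped. Bax had 0.846 and 1.06 in KD against 0.583 and 1.18 in KI, and Cdkn1a 0.186 and 0.179 in KD against 0.380 and 0.181 in KI. With 2 mice against 2 an exact permutation test cannot give a two-sided p below 0.333, so none is reported for these ratios.

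**Figure D4:**
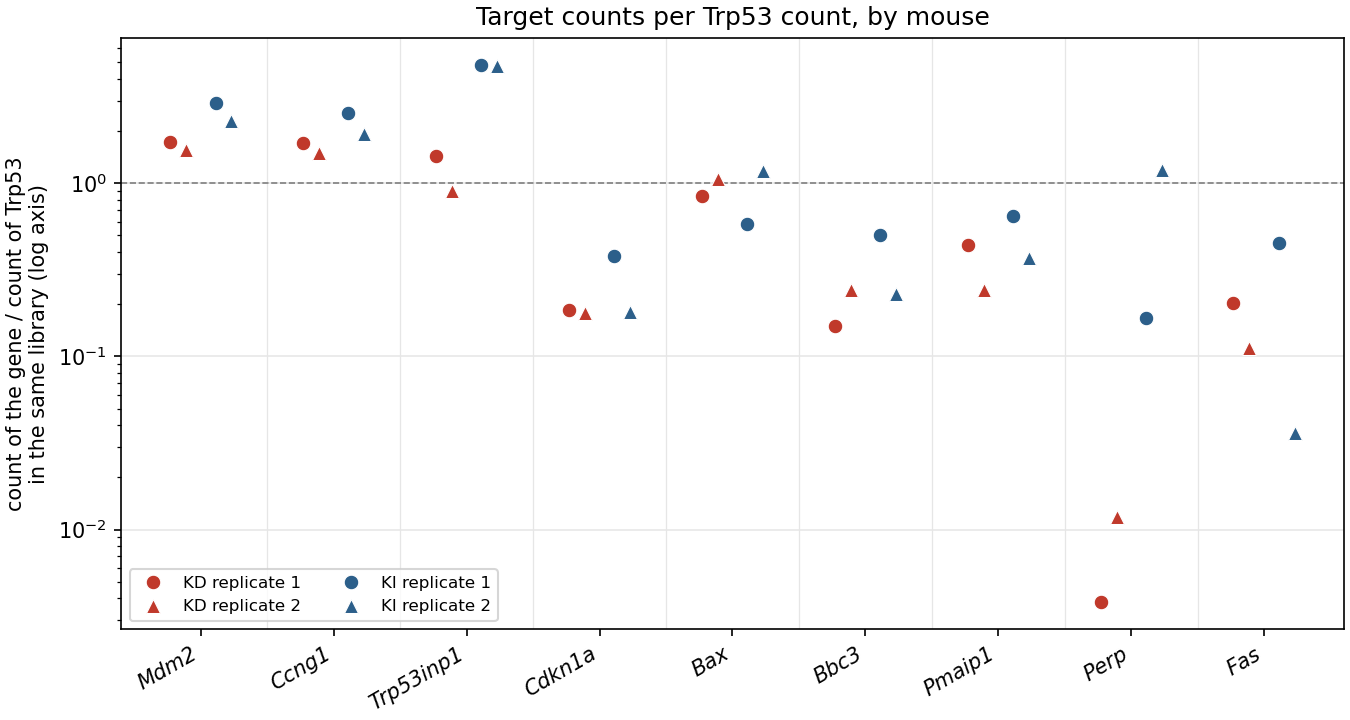
Count of each target divided by the count of Trp53 in the same library (log axis), KD in red to the left of KI in blue, circles for replicate 1 and triangles for replicate 2. Mdm2, Ccng1, Trp53inp1 and Perp lie lower in both KD mice than in both KI mice, and the KI mice nearly coincide for Trp53inp1.

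Among 17 genes that regulate p53, 15 were tested, 7 with a positive and 8 with a negative fold change. In edgeR's test 0 passed in either direction, and none had an unadjusted p under 0.05, where 8.34% of all tested genes were lower and 1.29% higher. The median was -0.03. Mdm4, the partner of Mdm2 that holds p53 inactive, lay at 214 and 157 CPM in KD, against 225 and 234 CPM in KI. The 4 with the lowest p were Atm and Chek2, kinases of the DNA damage signal, Ep300, an acetyltransferase, and Trp53bp1, a repair scaffold. Atm had 68.1 and 73.6 CPM in KD, against 55.0 and 44.0 CPM in KI, with a log2 fold change of 0.52 ± 0.28 (SE) and adjusted p = 0.620 in edgeR's test. The other 3 had values of 0.44 ± 0.36 (Chek2), 0.52 ± 0.36 (Ep300) and -0.41 ± 0.32 (Trp53bp1). Cdkn2a, the source of Arf, which blocks Mdm2, was low and uneven, at 2.19 and 0.432 CPM in KD against 1.16 and 3.08 CPM in KI. Of the p53 relatives, Trp63 held 5 and 7 counts in KD and 37 and 6 in KI, the 37 being in KI replicate 1, and Trp73 was not detected in KI replicate 2, where 0 counts allow up to 3.

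Further targets of p53 in arrest and repair went both ways. Of 19 listed genes 18 were tested, 9 positive and 9 negative, with a median of -0.0040 and 0 called in either direction. Unadjusted p was under 0.05 for 8.34% of all tested genes lower in KD and 1.29% higher, and for 1 gene of this list. That was Sfn, the 14-3-3 sigma protein that holds cells before mitosis, at 3.75 and 4.67 CPM in KD and 7.89 and 14.4 CPM in KI (log2 -1.41 ± 0.54, SE; adjusted p = 0.518 in edgeR's test). Plk3, a stress kinase, lay in the same direction at 2.62 and 2.51 CPM in KD and 5.10 and 8.42 CPM in KI. Zmat3, an RNA-binding target of p53, had 6.65 and 5.44 CPM in KD and 12.5 and 7.71 CPM in KI. Psrc1, a spindle gene, lay the other way at 10.97 and 14.9 CPM in KD and 8.58 and 0.949 CPM in KI, and passed only without KI replicate 1 (1 gene of the list). Gadd45a, Sesn1, Sesn2, Xpc and Btg2, all induced by p53 after damage, had values between -0.52 and 0.17.

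Of 16 further death and survival targets 14 were tested, 8 positive and 6 negative, with a median of 0.08 and 0 called. Only 1 (Trp53inp2) had an unadjusted p under 0.05, where 8.34% of all tested genes were lower and 1.29% higher. Trp53inp2, the paralogue of Trp53inp1 that also acts in autophagy, lay at 7.78 and 4.49 CPM in KD, against 28.5 and 9.73 CPM in KI (log2 -1.63 ± 0.65, SE; adjusted p = 0.518 in edgeR's test). Trp53inp1 and Trp53inp2 were thus both lower in both KD mice, with fitted values of -1.65 and -1.63, but on 457 to 1450 counts for Trp53inp1 and 52 to 123 counts for Trp53inp2. Trp53i11 lay at 1.56 and 1.90 CPM in KD, against 4.87 and 5.58 CPM in KI. Casp1, the inflammatory caspase, had 38.6 and 33.4 CPM in KD against 25.7 and 16.7 CPM in KI. Bid, which carries the death receptor signal to Bax, had 62.3 and 83.8 CPM in KD against 42.4 and 53.6 CPM in KI. Apaf1, the core of the apoptosome, had 230 and 220 CPM in KD against 176 and 177 CPM in KI. None of these passed in edgeR's test, with adjusted p of 0.525 for Trp53i11, 0.557 for Casp1, 0.594 for Bid and 0.776 for Apaf1.

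Cell cycle genes that fall when p21 is active were mostly positive. All 10 listed genes were tested, 9 positive and 1 (Cdk1) negative, with a median of 0.29, 0 called and none at an unadjusted p under 0.05. Among all 13822 tested genes, 6151 were positive. Ccna2, cyclin A2, lay at 165 and 179 CPM in KD and 97.2 and 146 CPM in KI, and Foxm1, a driver of mitotic genes, at 75.7 and 86.0 CPM in KD and 40.8 and 70.0 CPM in KI. In both the KD mice were above the KI mice, with adjusted p of 0.695 and 0.709 in edgeR's test. Aurka and Mcm5 overlapped between the genotypes, at 0.32 ± 0.38 and 0.39 ± 0.47 (SE). The summed level was 773 and 1046 CPM in KD, and 485 and 965 CPM in KI, with KI replicate 1 the lowest. The median was 0.96 when KI replicate 2 was left out and 0.0177 when KI replicate 1 was. It was 0.45 without KD replicate 1 and 0.0467 without KD replicate 2. Of the 6 other CDK inhibitors 5 were tested, 2 positive and 3 negative, with a median of -0.15, 0 called and 2 (Cdkn2c and Cdkn1c) at an unadjusted p under 0.05. By that p, 8.34% of all tested genes were lower in KD and 1.29% higher. Cdkn2c had 71.3 and 94.5 CPM in KD and 39.7 and 49.0 CPM in KI, with a log2 fold change of 0.90 ± 0.30 (SE). Cdkn1c had 1.34 and 1.21 CPM in KD and 3.94 and 5.93 CPM in KI, with a log2 fold change of -1.95 ± 0.70 (SE). Both had adjusted p = 0.518 in edgeR's test. Cdkn1b, p27, and Cdkn2d overlapped between the genotypes, at 89.5 and 75.3 CPM in KD and 115 and 68.8 CPM in KI for Cdkn1b, and at 58.0 and 65.7 CPM in KD and 45.2 and 58.4 CPM in KI for Cdkn2d.

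**Figure D5:**
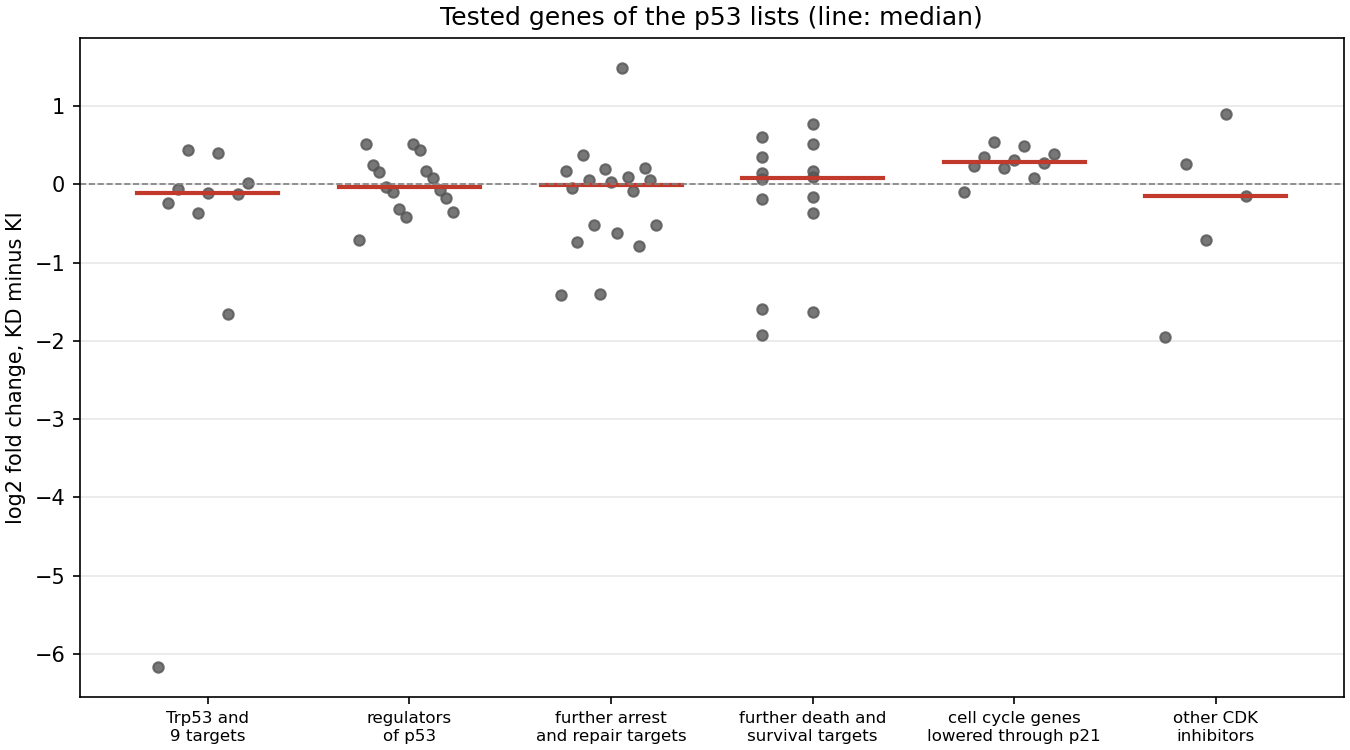
Fitted log2 fold change (KD minus KI) of every tested gene in the 10-gene set and in 5 wider p53 lists, 1 point per gene, with red lines for medians. The medians run from -0.15 to 0.29 and Perp, at -6.17, is the lowest point.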

How the data were processed

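RNA of 4 mice was sequenced from TruSeq Stranded mRNA libraries, per the labels' protocols. The values used are the raw counts per Ensembl gene that the authors deposited, and the tools named in the submitters' processing notes are HTSeq, DESeq, SAMtools and TopHat2 2.0.10, on GRCm38. Annotation release, strand setting and read filters: not given in the sources used here. Summary entries that name no gene (93.2% to 97.9% of all counted entries per library) were removed. Symbols matched 40254 of 41214 genes. The 8 chromatin libraries are not analysed here: the 1616 columns of their tables name neither antibody nor mouse.

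Counts were analysed in R 4.3.3 with edgeR 4.0.16: filterByExpr by genotype (13822 genes), TMM factors (1.19 and 1.13 in KD, 0.957 and 0.778 in KI), then glmQLFit and glmQLFTest on a design holding genotype alone. P-values were adjusted over all genes tested by Benjamini-Hochberg, with a threshold of 0.05. The script was tested on simulated data. The SE is the fold change over the root of the F statistic, and intervals are 95%. CPM use the total of the tested genes. With 2 mice per genotype, p-values set the difference between genotypes against the spread between these mice within a genotype. The estimate of that spread borrows from all genes tested (prior degrees of freedom 3.56). Replicates were distinct libraries (Pearson correlation of log2 CPM 0.958 in KD and 0.858 in KI). Alternatives tried were scaling by library size only, by upper quartile or by RLE, 13 satellite-like loci left out, no low-count filter, DESeq2 1.42.0, limma-voom (limma 3.58.1), the replicate number as a block, and each library left out in turn with the tested genes kept. DESeq2 gave no adjusted p for genes its own filter removed. Counting intervals and floors cover counting error only. Named genes were the 10 members, the 4 with the lowest p of each wider list, Gfi1 and the markers; others named from those lists were chosen after their values were seen. The sum of a further marker list is not reported here. Members and lists were chosen with earlier results of these data known.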

Additional observations from a re-analysis of the deposited data

How the results depend on the processing

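Trp53, Trp53inp1 and Perp kept their direction under all 12 alternatives. With library size only, the median of all tested genes was 0.37, beside -0.06 with TMM, and 5 genes turned positive: Mdm2 (0.20), Cdkn1a (0.28), Ccng1 (0.37), Pmaip1 (0.30) and Bbc3 (0.0189). Without the low-count filter the median over the same 13822 genes was 0.12, and Cdkn1a was at 0.13, Ccng1 at 0.14 and Pmaip1 at 0.0981. Ccng1 was at 0.0276 with RLE and 0.0275 with DESeq2, and Fas at -0.16 with upper quartile scaling and -0.0116 without satellite loci. Leaving out 1 library gave ranges of -0.30 to 0.31 for Cdkn1a, -0.0721 to 0.0800 for Ccng1, -0.89 to 0.0709 for Bbc3, -0.47 to 0.18 for Pmaip1, -0.0027 to 1.47 for Bax and -0.78 to 2.40 for Fas. Each such fit leaves a lone mouse that is assumed to vary like the other genotype, and the cause of these shifts was not tested.

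The 10 genes included 0 called higher under any alternative. They included 2 called lower with DESeq2 (Trp53inp1 and Perp), 1 without the filter (Perp), and 0 to 1 (Perp) without 1 library. Limma-voom called 0 of all genes. Of all genes, 29 were called higher and 140 lower without the filter, 5 and 137 with DESeq2, and 3 to 149 higher (149 without KI replicate 1) and 29 to 774 lower (774 without KI replicate 2) when 1 library was left out. With the replicate number as a block 7 were called lower and 0 higher, none of the 10: Perp lay at -5.83 and Trp53inp1 at -1.65. The labels do not say that a number pairs mice, and deviations of same-numbered libraries correlated at 0.249; both replicate 2 libraries were high in Xist and both replicate 1 libraries low. In the wider lists the calls were 1 arrest and repair gene higher (Psrc1) without KI replicate 1 and 1 death and survival gene lower (Trp53inp2) without KI replicate 2, so those lists ran from 0 to 1. With library size only their medians were: regulators 0.40, arrest and repair 0.41, death and survival 0.54, cell cycle genes 0.76, and other CDK inhibitors 0.23. Without the filter they were 0.15, 0.18 and 0.0989 for regulators, arrest and repair, and other CDK inhibitors, and arrest and repair lay at -0.0941 with upper quartile scaling. Without 1 library the medians ran from -0.0105 to 0.31 for regulators, -0.17 to 0.11 for arrest and repair, and -0.17 to 0.33 for death and survival. They ran from 0.0177 to 0.96 for cell cycle genes and -0.28 to 0.30 for other CDK inhibitors. Depth limits Perp in KD (2 and 6 counts), Fas in KI replicate 2 (11 counts) and Cdkn1a throughout.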
